A study of Mus musculus with 29 samples.

Results

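The Th2 cytokine locus of mouse chromosome 11 was followed here through DNA methylation in lung. The 6 genes followed lie in the order Kif3a, Il4, Il13, Rad50, Il5 and Irf1, with a few other annotated genes between them, and the members were all windows of the deposited table that the authors had assigned to 1 of these genes. There were 35 such windows among 260686, namely 10 for Kif3a, 3 for Il4, 2 for Il13, 13 for Rad50, 2 for Il5 and 5 for Irf1, and all 35 had a value in every library. Windows are numbered within each gene in chromosome order. All coordinates are of build GRCm38, and each member window held 50 CpG dinucleotides, so that short windows are CpG-dense and long windows are CpG-poor. Exon numbers are those of 1 GENCODE transcript per gene.

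The measurement was enzymatic whole-genome methyl-sequencing (WGMS), which reads unmethylated cytosines as thymines, and it had been applied to lung DNA of 29 BALB/c offspring, described as females 13 weeks old. Sham dams were given saline into the nose and PM dams a suspension of fine airborne particles (PM2.5), before mating, through gestation and up to weaning. Offspring were sensitised to ovalbumin (OVA) in alum by injection and then breathed OVA aerosol, which induces allergic airways disease (AAD). Control offspring, called unchallenged here, breathed nebulised saline for as long. The unchallenged groups Sham and PM had 7 libraries each, Sham-OVA had 7, and PM-OVA had 8. OVA with alum models an allergic response to a single protein, and the animals had also undergone a methacholine lung function test. Libraries were not tied to dams or litters in the labels used here, so p-values measure the spread between these libraries, which may share litters. The DNA came from homogenised lobe tissue, in which a change in the mixture of cell types and a change of methylation within a cell type cannot be told apart.

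The locus is the textbook case of coordinated cytokine control. Il4, Il5 and Il13 encode the interleukins that define type 2 immunity, in which IL-4 drives T helper cells into the Th2 state and the antibody class switch to IgE, IL-5 matures and recruits eosinophils, and IL-13 acts on airway epithelium and smooth muscle. In naive T cells the locus is closed and methylated, and in Th2 cells and type 2 innate lymphoid cells it is opened by GATA3 and STAT6, with loss of methylation at regulatory elements. Rad50 encodes a DNA repair protein that is expressed in all cells, but its 3′ end holds the Th2 locus control region, an enhancer cluster that loops to the cytokine promoters. Kif3a, a kinesin motor subunit needed for cilia, and Irf1, an interferon-induced transcription factor, are the neighbours on either side.

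The sequences just upstream of the gene starts set the cytokine genes apart from their neighbours, and they are shown for that reason. Each line gives the 250 bases before a RefSeq start (GRCm38.p6, the outermost start where a gene had 2), 5′ to 3′ on the strand of the gene, in lower case with CpG dinucleotides in capitals. The Il4 sequence is at chr11:53618666-53618915 (minus strand), Il13 at chr11:53634703-53634952 (minus strand), Il5 at chr11:53720544-53720793 (plus strand) and Irf1 at chr11:53769764-53770013 (plus strand).
Il4: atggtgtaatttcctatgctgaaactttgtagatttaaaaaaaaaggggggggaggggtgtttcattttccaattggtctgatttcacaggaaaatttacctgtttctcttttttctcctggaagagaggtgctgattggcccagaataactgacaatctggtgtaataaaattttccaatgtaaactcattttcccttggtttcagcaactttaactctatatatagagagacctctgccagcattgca
Il13: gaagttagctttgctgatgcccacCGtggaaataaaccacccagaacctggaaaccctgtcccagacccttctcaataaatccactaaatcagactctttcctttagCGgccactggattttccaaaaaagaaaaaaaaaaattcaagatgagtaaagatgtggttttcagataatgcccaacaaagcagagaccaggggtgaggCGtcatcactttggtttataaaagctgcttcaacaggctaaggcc
Il5: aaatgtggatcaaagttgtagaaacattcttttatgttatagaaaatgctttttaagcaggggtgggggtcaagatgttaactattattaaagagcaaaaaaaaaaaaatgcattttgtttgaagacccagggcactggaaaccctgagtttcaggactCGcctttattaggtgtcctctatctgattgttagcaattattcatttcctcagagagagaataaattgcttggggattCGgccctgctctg
Irf1: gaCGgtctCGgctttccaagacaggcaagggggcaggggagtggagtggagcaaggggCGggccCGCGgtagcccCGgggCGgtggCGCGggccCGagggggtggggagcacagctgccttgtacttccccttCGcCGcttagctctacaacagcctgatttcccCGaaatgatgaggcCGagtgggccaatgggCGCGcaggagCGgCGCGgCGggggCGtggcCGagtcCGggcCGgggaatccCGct
The Il4 stretch has 0 CpGs, Il5 has 2 and Il13 has 3, whereas Kif3a has 15 and Irf1 has 25. Among 32851 RefSeq promoter stretches of this length the median was 6 CpGs, and 29% had at most 2. Both strands were searched for AGATAA, a motif of GATA factors, and the Il13 stretch has 1 match, where 9.99% of all promoter stretches hold the motif. A search for the STAT6 motif, TTC and GAA with any 4 bases between them, which reads the same on both strands, found 1 match in the Il4 stretch and 0 in the others, where 5.85% of all promoter stretches hold it. No stretch holds both motifs, so they do not overlap. The Rad50 start was not among the RefSeq promoter sequences used here.

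A further pair of stretches lies away from the starts and belongs to windows that the results turn on. They are the 300 bases with the most CpGs, outside annotated exons, in Rad50 window 3 (chr11:53657497-53657796, within intron 21 of 25-exon Rad50) and in Il13 window 2 (chr11:53636082-53636381, upstream of the Il13 start), both printed on the plus strand with CpGs in capitals.
Rad50 window 3: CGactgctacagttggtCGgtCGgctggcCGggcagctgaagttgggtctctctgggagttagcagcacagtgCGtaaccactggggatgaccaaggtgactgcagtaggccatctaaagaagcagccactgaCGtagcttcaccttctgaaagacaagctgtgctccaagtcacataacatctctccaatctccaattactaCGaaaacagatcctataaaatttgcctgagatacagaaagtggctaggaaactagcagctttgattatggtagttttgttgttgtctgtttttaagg
Il13 window 2: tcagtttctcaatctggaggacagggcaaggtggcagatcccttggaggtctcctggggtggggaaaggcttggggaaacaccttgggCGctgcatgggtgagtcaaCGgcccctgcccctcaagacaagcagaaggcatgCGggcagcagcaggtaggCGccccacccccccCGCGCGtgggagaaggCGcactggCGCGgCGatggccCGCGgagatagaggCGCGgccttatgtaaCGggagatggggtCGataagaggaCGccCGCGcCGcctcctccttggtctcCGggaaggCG
The Il13 stretch has 23 CpGs and the Rad50 stretch has 7.

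A few libraries stand apart. Sham replicate 1 had values in 1224 of the 1230 windows on the Y chromosome, where the other 28 libraries had values in 29 to 46, and this goes against the description of all animals as female. Its label was kept. Among the Sham-OVA libraries, replicate 7 was the highest in 13 of the 35 windows, including the 3 Il4 windows, Il13 window 2 and Rad50 windows 1 to 3. In PM-OVA, 2 of 8 libraries, replicates 7 and 8, have the mark Rel in their names, whose meaning is not given in the labels. When both were left out, an alternative chosen after the data were seen, 16 windows were lower and 2 higher in PM, where 32.2% and 7.54% of all windows were, and the difference in Rad50 window 3 was -12.1 points (adjusted p = 1.46e-08). Without Sham replicate 1, the Sham calls of Kif3a window 3 (adjusted p = 0.0797), Kif3a window 10 (0.0531) and Rad50 window 13 (0.0705) were lost, and the falls in Sham were -5.28 points in Il4 window 3 (adjusted p = 0.000673), -4.39 points in Il13 window 2 (8.74e-05), -8.38 points in Kif3a window 7 (6.84e-06) and -10.3 points in Rad50 window 3 (2.65e-08). The libraries had values in 258952 to 260135 windows. Because the table gives percentages alone, the number of reads behind each window's value is unknown.

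In unchallenged lung most windows of the locus were highly methylated. In Sham the mean was above 80% in 23 of the 35 windows, where it lay between 80.3% and 93.5%. The lowest windows were the CpG islands at the starts of Rad50 and Irf1. Rad50 window 13 (625 bp, 80 CpGs per kb, chr11:53706884-53707508), which covers exon 1, had 0.00840% ± 0.0222 (SD, n = 7), with 6 of 7 libraries at 0. Irf1 window 1 (361 bp, chr11:53769970-53770330) had 0.0408% ± 0.0568 and Irf1 window 2 (873 bp, chr11:53770331-53771203) had 0.503% ± 0.306. The cytokine starts were methylated. The window at the Il4 start (Il4 window 3) had 69.0% ± 1.19, the 2 windows at the Il5 start had 82.9% ± 0.687 and 81.4% ± 2.18, and the window at the Il13 start (Il13 window 2) had 44.5% ± 1.06, where the CpG-dense stretch printed above is included. Kif3a window 1, which begins inside the gene just after the start, had 42.7% ± 2.37, and Rad50 window 12 next to the Rad50 island had 46.3% ± 0.694. Away from the starts, the lowest levels were 51.2% ± 4.47 in Irf1 window 3, 63.8% ± 1.18 in Kif3a window 10 and 69.6% ± 1.15 in Kif3a window 7.

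**Figure D1:**
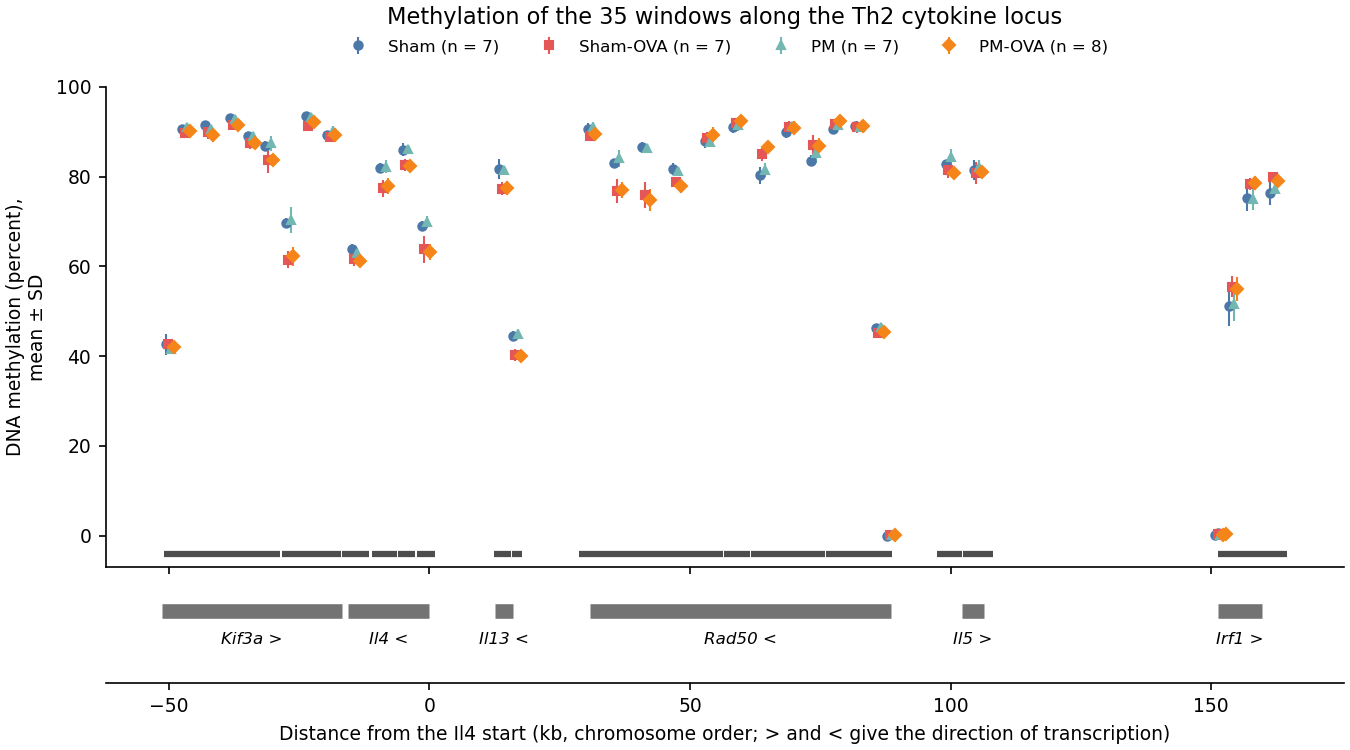
Methylation of the 35 windows in percent (mean ± SD over the libraries of each group) against distance from the Il4 start in kb, with the windows as dark dashes and the genes as grey bars below. Most windows lie above 80%, the Rad50 and Irf1 start windows lie near 0, and the red and orange OVA groups separate from the unchallenged groups most clearly in Rad50 window 3.

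After OVA challenge all windows of Il4, of Il13 and of the 3′ end of Rad50 were lower in both arms, as were 7 of 10 Kif3a windows in Sham and 5 in PM. In both arms Rad50 window 7, in the middle of the gene, and Irf1 window 4, in the gene body, were higher. Each window was tested with limma after a log2 transform of its percentages, with Benjamini-Hochberg adjustment over 259167 windows, and differences are given in percentage points with the SE of the difference. In the offspring of Sham dams 16 of the 35 windows were lower at adjusted p under 0.05, against 22.3% of all windows tested, and 6 were higher, against 13.3%. In the offspring of PM dams 15 were lower, against 34.8% of all windows, and 2 were higher, against 9.26%. Calls in the same direction in both arms, which share no library, were made for 14 windows lower (19.7% of all windows) and 2 windows higher (7.57%), and 12 windows were called in neither. Over the members the median difference amounted to -1.10 points in the Sham arm and -1.16 in the PM arm, beside -0.414 and -1.03 over all tested windows.

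A differentially methylated region (DMR) additionally needed a difference of at least 10 points, and 1 member window, Rad50 window 3, met this in Sham (0.296% of all windows were DMRs with lower methylation), in PM (0.321%) and in both (0.232%). In Sham the OVA libraries all lay below the unchallenged ones in 5 member windows, where 5.43% of all windows did so, and all above in 2 (3.15%). In PM these counts were 8 (10.3%) and 1 (1.65%). When each library was centred on its median difference from the mean library, the calls were 13 lower and 7 higher in Sham, where 17.8% of all windows were then lower and 18.3% higher, and 11 lower and 8 higher in PM (18.7% and 18.9%). The split between lower and higher calls in PM thus rests on the scaling, for the members as for all windows. Without Sham replicate 1 there were 14 lower and 5 higher calls in Sham (20.5% and 12.4% of all windows) and 16 lower and 2 higher in PM (35.1% and 9.28%). Without Sham-OVA replicate 6, 3 windows were called higher in Sham.

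**Figure D2:**
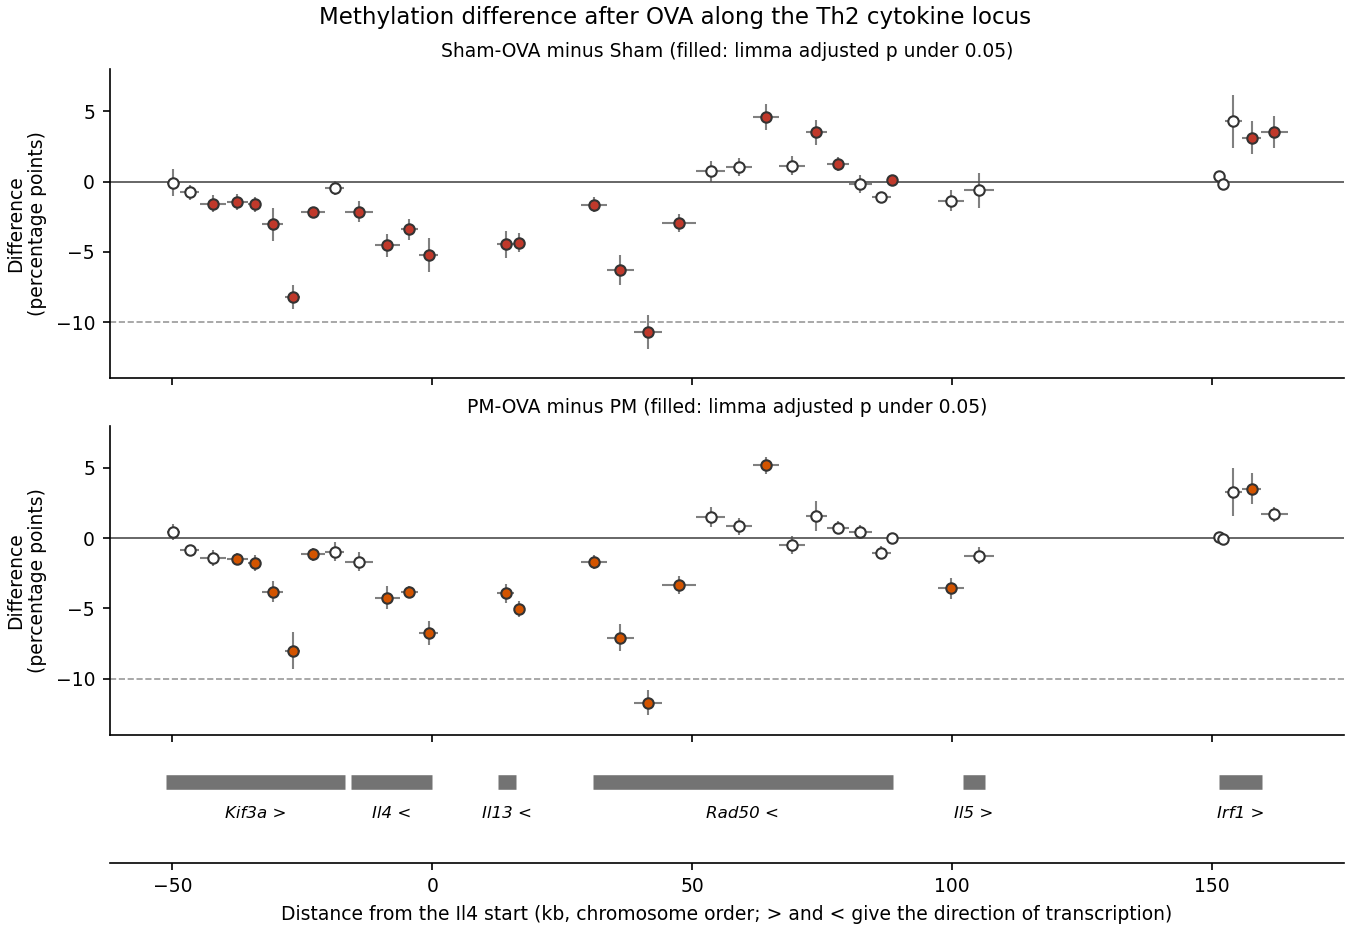
Difference in methylation after OVA in percentage points (± SE vertically, extent of the window horizontally) along the locus, for Sham dams above and PM dams below. Filled points have a limma adjusted p under 0.05 and the dashed line marks the fall of 10 points that a DMR needs, which Rad50 window 3 passes in both panels.

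Lists of cell type genes were read against the shares called over all windows, 22.3% lower and 13.3% higher in Sham and 34.8% and 9.26% in PM. These lists, like the gene lists further below, were chosen with earlier results of these data known. Their shares are therefore a description and not a test. Of 36 windows in 4 genes that mark leucocytes in general (Ptprc, Coro1a, Laptm5 and Cytip), 19 (52.8%) were lower and 9 (25%) higher in Sham, and 23 (63.9%) were lower and 6 (16.7%) higher in PM. The mean over these windows lay between 68.8% and 70.6% in Sham libraries and between 64.0% and 66.6% in Sham-OVA libraries. The corresponding ranges were 69.2% to 70.3% in PM and 64.2% to 66.0% in PM-OVA. For 10 T cell genes (84 windows, among them Cd3e, Cd4 and Lck), 29 windows (34.5%) were lower and 14 (16.7%) higher in Sham. In PM 31 (36.9%) were lower and 8 (9.52%) higher, near the shares over all windows. Their mean level over the 82 windows with a value in every library was 69.7% ± 0.429 in Sham and 69.1% ± 0.459 in Sham-OVA, and 70.1% ± 0.376 in PM and 69.0% ± 0.373 in PM-OVA. In 7 eosinophil and myeloid genes 12 of 31 windows (38.7%) were lower in Sham and 15 (48.4%) in PM, with 3 and 2 higher. In 3 genes that mark type 2 innate lymphoid cells, 75 of 170 windows (44.1%) were lower in Sham and 110 (64.7%) in PM, with 7 and 5 higher. These are mainly the values of 1 long gene, since Rora held 158 of the windows and 73 and 104 of the lower calls, while Il1rl1 had 2 of 8 windows lower in Sham and 5 in PM, and Klrg1 had 0 of 4 and 1. The part of these cells in the values at the cytokine locus was not tested.

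Il4, the signature Th2 cytokine, was lower in both arms in all 3 windows assigned to it, beside 22.3% of all windows in Sham and 34.8% in PM. A further 4201 bp of the annotated Il4 gene lie in Kif3a window 10, described with Kif3a. At the Il4 start, Il4 window 3 (chr11:53616210-53619703) covers the start, 636 exonic bases and 1034 bp upstream, including the CpG-free stretch printed above. Its lowest, median and highest libraries were 66.6%, 68.9% and 70.2% in Sham and 60.0%, 63.7% and 69.8% in Sham-OVA. In PM they were 68.4%, 69.8% and 72.2%, and in PM-OVA 59.6%, 63.9% and 65%. The PM-OVA libraries all lay below PM, whereas 1 Sham-OVA library, replicate 7, lay within the Sham range. The difference was -5.22 ± 1.23 points in Sham (limma adjusted p = 0.000351) and -6.75 ± 0.822 points in PM (adjusted p = 6.49e-06), and 2.36% and 1.29% of all windows fell at least as far. Without Sham-OVA replicate 7 the difference in Sham was -6.23 points.

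The other Il4 windows behaved alike. Il4 window 2 (chr11:53612567-53615996), in the gene body, fell by 3.39 points in Sham (adjusted p = 5.67e-05) and changed by -3.81 points in PM (adjusted p = 6.75e-06). The Sham libraries (83.4% to 87.1%) overlapped the Sham-OVA libraries (79.9% to 84.2%). The PM libraries lay between 85.6% and 86.6% and the PM-OVA libraries between 80.3% and 84.1%, with no overlap. Il4 window 1 (chr11:53607624-53612395), which lies in the 3′ part of the annotated gene and has 65 exonic bases, ranged from 79.9% to 83.1% in Sham and from 74.2% to 79.0% in Sham-OVA, again without overlap. It changed by -4.54 points there (adjusted p = 8.36e-05) and by -4.25 points in PM (adjusted p = 7.34e-05).

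Il13, the effector cytokine of airway epithelium and mucus, was lower in both windows in both arms, beside 22.3% of all windows in Sham and 34.8% in PM. Il13 window 2 (chr11:53634467-53636381) holds exon 1 and 1679 bp upstream of the start, and with 26.1 CpGs per kb it was the densest of the cytokine windows. Its lowest, median and highest libraries were 43.1%, 44.4% and 46.3% in Sham and 38.4%, 40.1% and 42.7% in Sham-OVA. In PM they were 43.5%, 45.0% and 46.8%, and in PM-OVA 38.3%, 39.6% and 41.7%. The OVA libraries all lay below the unchallenged ones in both arms. The differences were -4.33 ± 0.644 points (adjusted p = 3.98e-05) and -5.06 ± 0.579 points (adjusted p = 2.28e-06). Il13 window 1 (chr11:53631154-53634420), with exons 2 to 4, fell from 81.7% ± 2.14 to 77.2% ± 1.44 in Sham (adjusted p = 0.000128) and from 81.4% ± 0.933 to 77.5% ± 1.58 in PM (adjusted p = 0.000319). The ranges overlapped in both arms for this window.

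Il5, which supports eosinophils, had 1 of 2 windows called lower in PM and 0 in Sham, beside 34.8% and 22.3% of all windows. Il5 window 1 (chr11:53716074-53720948) holds the start, 2000 bp upstream and exon 1. Its lowest, median and highest libraries were 81.8%, 82.9% and 83.6% in Sham and 78.5%, 82.0% and 83.6% in Sham-OVA. In PM they were 81.5%, 84.9% and 86.1%, and in PM-OVA 79.8%, 80.6% and 81.8%. In Sham the groups overlapped widely, and in PM the lowest unchallenged library lay within the PM-OVA range. The difference was -1.36 ± 0.757 points in Sham (adjusted p = 0.175) and -3.56 ± 0.738 points in PM (adjusted p = 0.000187). The difference between the arms, tested as an interaction, was -2.20 ± 1.06 points, with an unadjusted limma p of 0.0309 and an adjusted p of 0.654, so a dependence on the dam was not shown. Il5 window 2 (chr11:53720954-53726756), over the gene body, differed by -0.604 ± 1.24 points in Sham (adjusted p = 0.644) and by -1.24 ± 0.591 points in PM (adjusted p = 0.243).

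**Figure D3:**
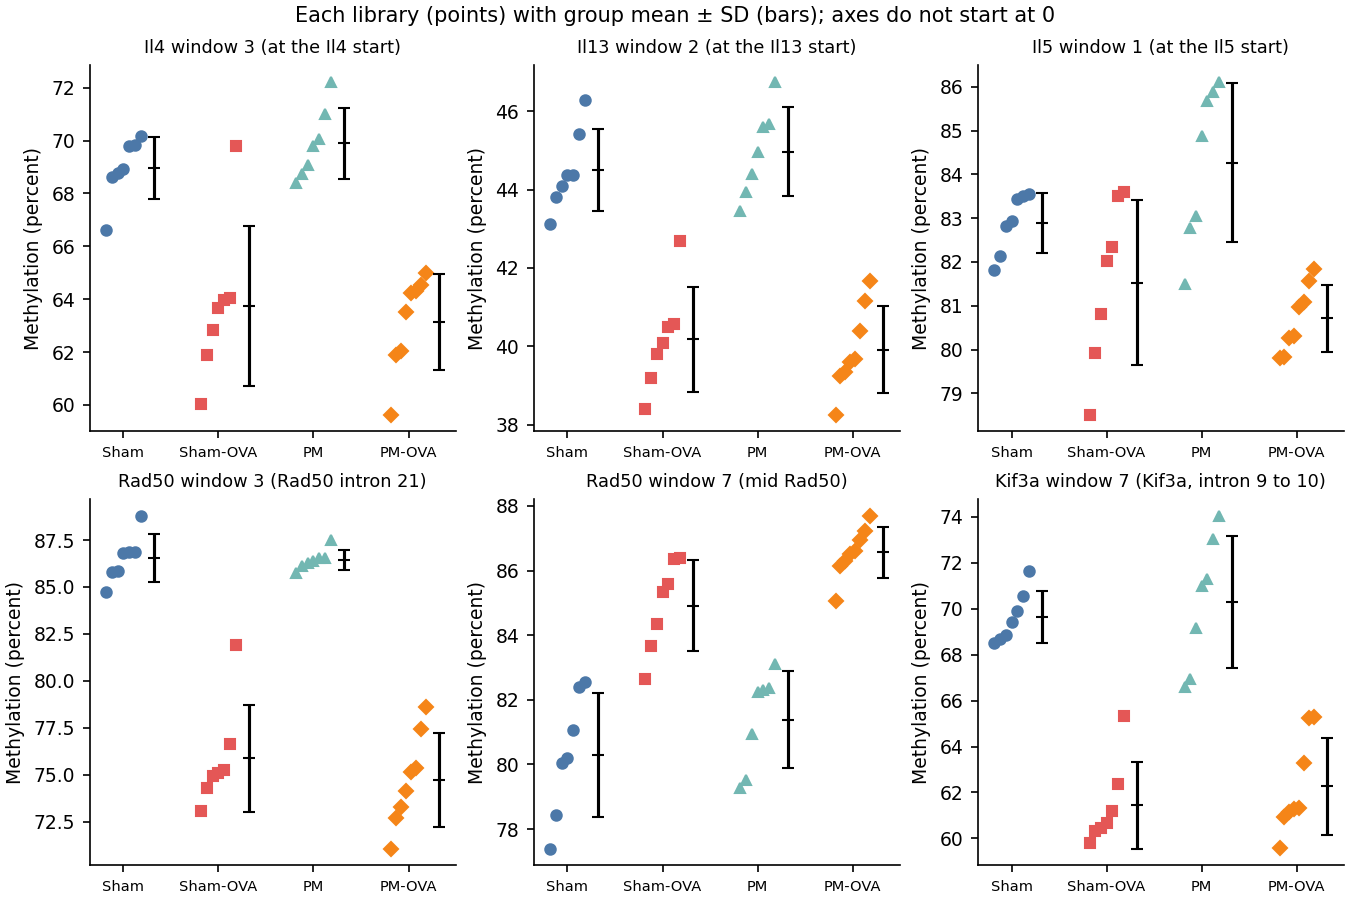
Methylation in percent of every library in 6 windows, with group means ± SD. In Rad50 window 3 the OVA libraries lie below all unchallenged ones, in Rad50 window 7 they lie above those of their own arm, and in Il4 window 3 a single Sham-OVA library at 69.8% lies among the Sham libraries; the vertical axes do not start at 0.

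The largest change of the locus was in the 3′ end of Rad50, where the Th2 locus control region is known to lie. All 4 windows that overlap the last 25% of the gene body were lower in both arms, and among the other 9 Rad50 windows 0 were lower. Over all windows 22.3% were lower in Sham and 34.8% in PM. Of the 4, Rad50 window 4 lies mostly outside the last 25%. Rad50 window 3 (chr11:53657497-53662947), which lies wholly in intron 21 and has 0 exonic bases, had the largest fall. Its lowest, median and highest libraries were 84.7%, 86.8% and 88.8% in Sham and 73.1%, 75.1% and 81.9% in Sham-OVA. In PM they were 85.7%, 86.4% and 87.5%, and in PM-OVA 71.1%, 74.6% and 78.6%. Every OVA library lay below every unchallenged library, and the highest Sham-OVA library was again replicate 7. The difference was -10.7 ± 1.18 points in Sham (limma adjusted p = 6.75e-09) and -11.7 ± 0.901 points in PM (adjusted p = 8.83e-10). Only 0.245% and 0.17% of all windows fell at least as far. Over the omission of each library in turn the difference in Sham ran from -11.7 to -10.2 points.

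The fall tapered to either side of Rad50 window 3. Towards the 3′ end, Rad50 window 2 (chr11:53652274-53657465, exons 22 to 24) went from 83.1% ± 0.872 to 76.8% ± 2.76 in Sham (adjusted p = 2.19e-05) and from 84.0% ± 1.88 to 76.9% ± 1.83 in PM (adjusted p = 1.03e-06), with no overlap in either arm. Rad50 window 1 (chr11:53647308-53652271), which reaches beyond the end of the gene, changed by -1.63 points (adjusted p = 0.0162) and by -1.67 points (adjusted p = 0.00699). On the other side Rad50 window 4 (chr11:53662985-53669382, exon 21) changed by -2.93 points in Sham (adjusted p = 0.00116) and by -3.33 points in PM (adjusted p = 0.00024). When libraries were centred the fall of Rad50 window 1 in PM was no longer called (adjusted p = 0.076).

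Among the 9 Rad50 windows with no base in the last 25%, 4 (44.4%) were higher in Sham and 1 (11.1%) in PM, beside 13.3% and 9.26% of all windows. The 1 called in both arms, Rad50 window 7 (chr11:53680331-53685331, exons 12 and 13), had its lowest, median and highest libraries at 77.4%, 80.2% and 82.6% in Sham and at 82.7%, 85.4% and 86.4% in Sham-OVA. In PM they were 79.3%, 82.2% and 83.1%, and in PM-OVA 85.1%, 86.6% and 87.7%. Within each arm the OVA libraries all lay above the unchallenged ones, while the lowest Sham-OVA library lay below the highest PM library. The rise was 4.61 ± 0.900 points (adjusted p = 2.89e-05) and 5.17 ± 0.635 points (adjusted p = 1.18e-06). Rad50 window 9 (chr11:53690536-53694663) rose by 3.51 ± 0.909 points in Sham (adjusted p = 0.00626) without overlap, and differed by 1.59 ± 1.05 points in PM (adjusted p = 0.188). Window 10 rose by 1.25 ± 0.484 points in Sham (adjusted p = 0.0364), a call that was lost on the percent scale (adjusted p = 0.0514) and in 7 of the 29 fits that left out 1 library each, with the highest adjusted p, 0.0834, without Sham replicate 7.

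The Rad50 start itself stayed near 0. Rad50 window 13 had group means of 0.00840%, 0.137%, 0.0338% and 0.0295% in Sham, Sham-OVA, PM and PM-OVA. Its rise of 0.129 points in Sham was called (adjusted p = 0.049), was lost without Sham-OVA replicate 6 (adjusted p = 0.128) and stayed called in 6 of the 29 fits that left out 1 library each. Rad50 window 12 (chr11:53703231-53706878, exon 2) differed by -1.10 ± 0.380 points (adjusted p = 0.155) and -1.04 ± 0.449 points (adjusted p = 0.149). The other 4 Rad50 windows, numbers 5, 6, 8 and 11, were called in neither arm and differed by between -0.488 and 1.51 points. When libraries were centred, windows 5 (adjusted p = 0.00518), 6 (0.0415), 9 (0.039) and 10 (0.0134) were called higher in PM.

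Kif3a, the ciliary kinesin gene before Il4, had 7 of 10 windows lower in Sham and 5 in PM, and 0 higher in either, beside 22.3% and 34.8% of all windows lower. When libraries were centred, 4 were lower in Sham and 2 in PM (17.8% and 18.7% of all windows), so that the count in PM was then near the background, since windows 3, 5 and 10 lost the call in Sham (adjusted p = 0.0573, 0.0534 and 0.0866) and windows 4, 5 and 8 in PM (0.0861, 0.126 and 0.165). The change was concentrated in Kif3a window 7 (chr11:53590345-53593290), which lies in introns 9 and 10 with 9 exonic bases. Its lowest, median and highest libraries were 68.5%, 69.4% and 71.7% in Sham and 59.8%, 60.7% and 65.3% in Sham-OVA. In PM they were 66.6%, 71.0% and 74.1%, and in PM-OVA 59.6%, 61.3% and 65.3%. Again the OVA libraries lay below all unchallenged ones in both arms. The difference was -8.19 ± 0.837 points (adjusted p = 3.28e-06) and -8.03 ± 1.32 points (adjusted p = 1.45e-06), which 0.59% and 0.706% of all windows matched or exceeded. The neighbouring Kif3a window 6 (chr11:53585855-53590024) changed by -3.02 points in Sham (adjusted p = 0.0233) and by -3.81 points in PM (adjusted p = 0.00147). Its call in Sham was lost without Sham-OVA replicate 6 (adjusted p = 0.0612), Sham-OVA replicate 4 (0.0517) or Sham replicate 4 (0.0546), and in the fit of only the groups compared (adjusted p = 0.0582), where windows 4 (0.0528) and 10 (0.0741) also lost the call in Sham. Without Sham-OVA replicate 7, which at 89.5% lay above every Sham library, the difference was -3.98 points (adjusted p = 0.000328). Kif3a window 10 (chr11:53601926-53607182), which shares bases with Il4 and has 42 exonic bases of Kif3a, fell by 2.13 points in Sham (adjusted p = 0.0353) and differed by -1.67 points in PM (adjusted p = 0.0777). The remaining called Kif3a windows differed by between -2.17 and -1.16 points. Kif3a window 1, next to the start, differed by -0.0741 ± 0.970 points in Sham (adjusted p = 0.961) and 0.445 ± 0.547 points in PM (adjusted p = 0.687).

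Irf1, the interferon-induced factor at the far end, had 0 of 5 windows lower, 2 (40%) higher in Sham and 1 (20%) higher in PM. Over all windows 13.3% were higher in Sham and 9.26% in PM, and 22.3% and 34.8% were lower. The Irf1 island windows 1 and 2 had group means of at most 0.503%, and differed by between -0.192 and 0.368 points without being called. Irf1 window 4 (chr11:53774502-53778193, exons 8 to 10) rose from 75.1% ± 2.74 to 78.3% ± 1.37 in Sham (adjusted p = 0.0237) and from 75.0% ± 2.49 to 78.5% ± 1.56 in PM (adjusted p = 0.00706). The groups overlapped in both arms, and the call in Sham was lost without Sham replicate 6 (adjusted p = 0.0655), Sham replicate 2 (0.0635) or Sham-OVA replicate 6 (0.0572). Irf1 window 5 (chr11:53778194-53783302), mostly past the 3′ end of the gene, rose by 3.52 ± 1.14 points in Sham (adjusted p = 0.00226) and differed by 1.69 ± 0.539 points in PM (adjusted p = 0.0979), where it was called when libraries were centred (adjusted p = 0.00589) or with only the groups compared (0.0308). Irf1 window 3 differed by 4.29 ± 1.90 points in Sham (adjusted p = 0.0566) and by 3.29 ± 1.73 points in PM (adjusted p = 0.114), with a wide spread between libraries. When libraries were centred it was called higher in both arms.

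Whether the dam had received PM made no difference that was called at the locus. For PM minus Sham without OVA, 0 of 35 windows were called by limma, as were 0% of all windows. At unadjusted p under 0.05 there were 2 members, Rad50 windows 8 and 10, against 5.79% of all windows. The smallest limma p was that of Rad50 window 10, which differed by 1.02 ± 0.449 points (unadjusted 0.0394, adjusted p = 0.856). For PM-OVA minus Sham-OVA, 0 were called, as were 0% of all windows, and 2 had an unadjusted p under 0.05, against 5.96% of all windows. The smallest was that of Rad50 window 7, with 1.65 ± 0.603 points (limma, unadjusted 0.0152, adjusted p = 0.816). For the interaction 0 were called (0% of all windows) and 1, Il5 window 1, had an unadjusted p under 0.05, against 7.4% of all windows. In Rad50 window 3 the interaction was -1.08 ± 1.49 points (adjusted p = 0.907), and in Il4 window 3 it was -1.53 ± 1.5 points (adjusted p = 0.82).

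**Figure D4:**
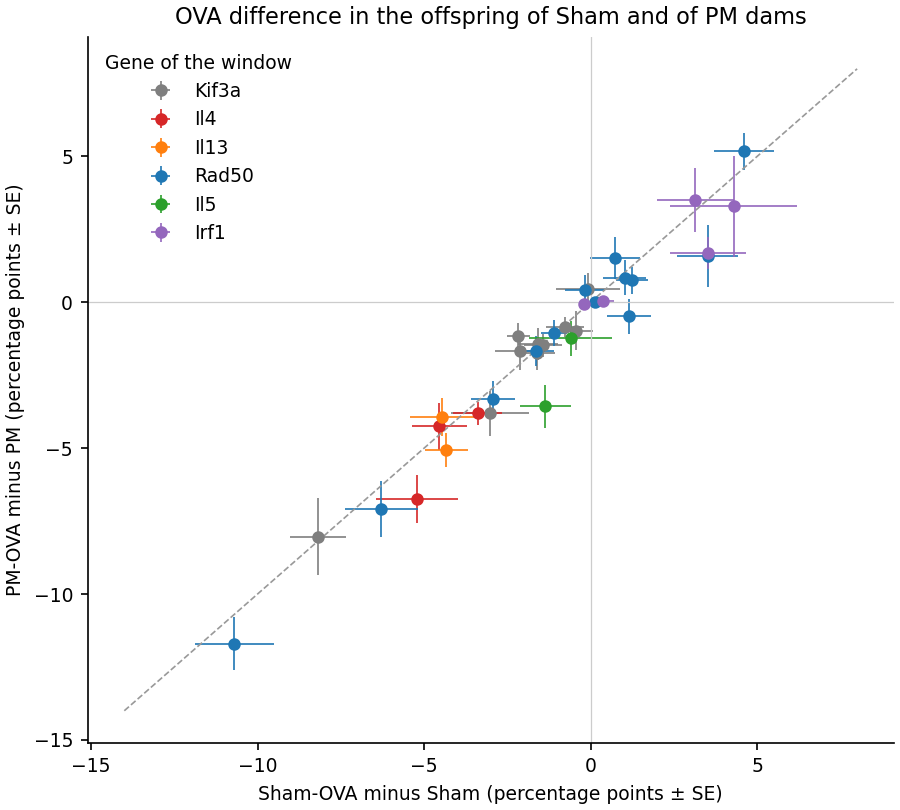
Difference after OVA in the offspring of Sham dams (horizontal) against that in the offspring of PM dams (vertical), in percentage points ± SE, with 1 point per member window coloured by gene and the line of equal values dashed. The points of the cytokine genes and of Rad50 window 3 lie near the line, and Il5 window 1 at -1.36 and -3.56 points lies below it.

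In the windows around the locus the largest falls were smaller, and the largest rises larger, than among the members. Of 96 windows of other genes within 250000 bp, 17 were lower and 18 higher in Sham, and 24 were lower and 12 higher in PM, with 0 DMRs. The lower calls were 17.7% and 25% of these windows, beside 22.3% and 34.8% of all windows. The median of their differences lay at 0.295 points for Sham and -0.237 for PM, and the extremes were -4.85 and 8.33 points in Sham and -5.66 and 6.19 points in PM. Rad50 windows 2 and 3, Kif3a window 7 and Il4 window 3 fell further than any of the 96 in both arms. Among these windows 3 lay between the members. The one in Gm12213, between Il5 and Irf1 (chr11:53731274-53735179), changed by -4.23 points in Sham (adjusted p = 0.000129) and by -3.84 points in PM (adjusted p = 0.000157).

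Genes that receive or transmit the cytokine signals had windows called in both directions, and their shares are to be read against 22.3% lower and 13.3% higher in Sham and 34.8% and 9.26% in PM over all windows. Windows were found for 5 of 6 receptor genes, and of 35 windows 11 (31.4%) were lower and 8 (22.9%) higher in Sham, and 8 (22.9%) lower and 7 (20%) higher in PM. Csf2rb, the shared signalling chain of the IL-5 receptor, had a DMR (chr15:78324151-78328760) that went from 67.2% ± 2.83 to 54.6% ± 3.57 in Sham (adjusted p = 3.83e-07) and from 65.6% ± 2.44 to 54.4% ± 2.69 in PM (adjusted p = 8.52e-07). Il5ra, the specific IL-5 receptor chain, had a DMR in Sham that changed by -10.7 points (adjusted p = 7.75e-07), and the same window changed by -9.18 points in PM (adjusted p = 2.94e-06). By contrast Il4ra, the shared receptor chain for IL-4 and IL-13, had 0 of 10 windows lower and 6 higher in Sham and 7 higher in PM.

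Among 85 windows of JAK and STAT genes, 17 (20%) were lower and 27 (31.8%) higher in Sham and 17 (20%) were lower and 18 (21.2%) higher in PM. Stat5b, a transducer of IL-5 signals, had a DMR that changed by -10.8 points in Sham (adjusted p = 2.37e-08) and by -11.3 points in PM (adjusted p = 5.04e-09). Jak3, the kinase of the common gamma chain, had 9 of 11 windows higher in both arms, and the window at chr8:71685838-71686845 rose from 41.5% ± 3.34 to 61.3% ± 4.83 in Sham (adjusted p = 3.79e-08) and from 43.1% ± 3.14 to 56.7% ± 4.12 in PM (adjusted p = 3.94e-06). Stat6, the main transducer of IL-4 and IL-13, had 0 of 6 windows lower and 1 higher in each arm.

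Of 127 windows in 7 Th2 transcription factor genes 38 (29.9%) were lower and 22 (17.3%) higher in Sham. In PM 45 (35.4%) were lower and 12 (9.45%) higher, near the 34.8% and 9.26% over all windows. Gata3, the master factor of Th2 cells, had 4 of 16 windows lower and 3 higher in Sham, and 5 lower and 1 higher in PM. Nfatc1, a factor activated by T cell receptor signals, had DMRs whose largest falls were -17.2 points in Sham (adjusted p = 4.27e-09) and -15.8 points in PM (adjusted p = 2.85e-09). Of its 39 windows, 11 were lower and 7 higher in Sham, and 13 were lower and 5 higher in PM. On the Th1 side (Tbx21, Ifng, Runx3 and Stat4), 8 of 53 windows (15.1%) were lower and 13 (24.5%) higher in Sham, and 10 (18.9%) lower and 13 (24.5%) higher in PM. Runx3, a factor that silences Il4, had 11 of 24 windows higher in Sham and 10 in PM, with rises of up to 18.1 points in Sham (adjusted p = 1.98e-06) and 14.8 points in PM (adjusted p = 1.38e-05). Satb1 and Ctcf, which fold the locus, had 2 of 35 windows (5.71%) lower and 3 (8.57%) higher in Sham, and 6 (17.1%) lower and 2 (5.71%) higher in PM.

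Downstream, genes induced by IL-13 in airway cells and macrophages were lower or not called. Of 21 windows in Chil3, Retnla, Ccl11, Ccl24, Muc5ac and Clca1, 8 (38.1%) were lower in Sham and 15 (71.4%) in PM, 0 were higher in either arm, and 0 were DMRs. Over all windows 22.3% were lower and 13.3% higher in Sham, and 34.8% and 9.26% in PM. Muc5ac, the mucin of goblet cells, had 5 of 7 windows lower in Sham and 6 in PM, and both Ccl24 windows were lower in both arms. The list's median was -1.5 points in Sham and -2.75 in PM, beside -0.414 and -1.03 over all windows.

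Among the windows elsewhere in the genome whose values followed the cytokine genes most closely were those in B3galt1, 9330175M20Rik, Nrg1 and Tnik. Likeness was Pearson's r between a window and the mean of the 7 Il4, Il5 and Il13 windows over 29 libraries, after the group means had been subtracted, and these genes had r of 0.826, 0.821, 0.818 and 0.794. The points share libraries and their unknown depth per window, and the values are a description without a test. The B3galt1 window changed by -4.16 points in Sham (adjusted p = 2.6e-05) and by -4.08 points in PM (adjusted p = 1.14e-05), close to the Il4 windows in size, whereas the Nrg1 window was not called in either arm (adjusted p = 0.345 and 0.101).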

How the data were processed

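According to the methods of the study, reads were trimmed (Trim Galore), aligned to GRCm38 and turned into methylation calls (DRAGEN), which the authors summarised in windows (SeqMonk). The deposited values are percent methylation per window and library, without normalisation between libraries, read counts or coverage. The methods give a sequencing yield and genome coverage per library, but the depth and counting error of a single window are not known. Of 260686 windows, 259167 with at least 3 values in each group were tested. Percentages were transformed to log2((percent + 1)/(101 - percent)) and fitted with limma 3.58.1 (R 4.3.3; data.table package, version 1.17.8) in a model of the 4 groups over 29 libraries, taking 2-sided p-values adjusted by Benjamini and Hochberg's method across every window tested. The study's own count test could not be run on percentages, and its stricter p threshold served as an alternative. The code was tested on simulated data. Methylation does not show expression, so the tissue label was not checked against marker genes. Windows were placed on GENCODE and RefSeq annotation of GRCm38 with Python 3.11.15 and pysam 0.24.0, and figures were drawn with matplotlib 3.10.9.

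Members and gene lists were chosen with earlier results of these data known. Named with values were all Il4, Il5 and Il13 windows, windows from 2000 bp before to 500 bp after the start of the other genes, and Rad50 windows that overlap its last 25%. Also named were up to 3 called windows with the largest rise and fall per OVA comparison, and the smallest p of each other comparison. Further member windows were named after their values were seen. In the lists, up to 3 DMRs per direction were named, and single genes with their counts were chosen after their values were seen. Of the 5 windows most like the cytokine genes, 1 is not reported here. Alternatives were the percent scale, other offsets, centring, complete windows, only the groups compared, the replicate number as a block, omission of each library, other thresholds and, added after the data were seen, omission of both Rel libraries.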

Additional observations from a re-analysis of the deposited data

Results flagged for a closer look

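In 15 of the 140 combinations of a member window and a group, 1 library lay far from the rest by Dixon's criterion, which chance alone meets in about 5% of groups. Sham-OVA replicate 7 was high in Rad50 window 3 (81.9%, next library 76.6%) and in Il4 window 3 (69.8%, next 64.0%), and both falls after OVA were larger without it. Sham-OVA replicate 6 was high in both CpG islands, with 0.557% in Rad50 window 13 (next 0.143%) and 2.49% in Irf1 window 1 (next 0.143%). Sham-OVA replicate 5 was low in Kif3a window 2 (87.4%) and in Rad50 window 10 (89.6%).

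Among Sham libraries, replicate 2 was high in Kif3a window 1 (47.7%) and in Rad50 window 12 (47.8%), and replicate 7 was low in Rad50 window 1 (88.4%) and high in Rad50 window 13, where 0.0588% stood against 0 in the other 6 libraries. Sham replicate 6 was high in Irf1 window 2 (1.12%) and Sham replicate 4 in Irf1 window 3 (60.8%, next 51.1%). Without Sham replicate 4 the rise of Irf1 window 3 in Sham was 5.88 points and was called (adjusted p = 0.00332). Among PM libraries, replicate 1 was high in Kif3a window 4 (94.7%), replicate 3 was high in Irf1 window 1 (0.143%), and replicate 5 was low in Irf1 window 3 (43.9%, next 50.3%). None of these was found in PM-OVA.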

How the results depend on the processing

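Rad50 window 3 stayed the only DMR of the locus in both OVA comparisons under each alternative scale, centring, set of windows or libraries, and 0 member windows were called for the maternal comparisons or the interaction. With adjusted p under 0.000001, 1 window remained lower and 0 higher in Sham, and 1 lower and 0 higher in PM. With a minimum difference of 5 points there were 4 DMRs in Sham and 6 in PM. The shares over all windows were not calculated at either of these thresholds, so the counts cannot be read against a background. Centring raised the windows called higher in PM to 8, where the median log2 change over all windows was -0.096 before and -0.002 after centring. With only the groups compared, 13 windows were lower and 5 higher in Sham, where 19.3% and 12% of all windows were. Leaving out 1 library at a time gave 12 to 16 windows lower and 3 to 6 higher in Sham, the lowest without Sham-OVA replicate 5 and without Sham-OVA replicate 6, and 15 to 17 lower and 2 to 3 higher in PM. In Sham the calls of Kif3a windows 3, 4, 5, 6 and 10, Rad50 windows 10 and 13 and Irf1 window 4 were lost in at least 1 of these fits, with adjusted p up to 0.128 (Rad50 window 13 without Sham-OVA replicate 6). No call changed its direction under any alternative. Whether the replicate numbers of the sample titles pair the libraries could not be decided, since no expectation by chance was calculated. Deviations of same-numbered libraries from different groups had a median correlation of 0.017, against -0.002 for other pairs. It was over 0.1 in 3 of 42 same-numbered pairs, and 9 of 29 libraries were closest to one with their own number. With the number as a replicate block the counts were 16 lower and 6 higher in Sham and 16 lower and 2 higher in PM. Some library names of the OVA groups carry another number than the title, or the mark Rel, and pairing by names was not tested. Without the Rel libraries, an alternative added after the data were seen, Rad50 window 13 lost its call in Sham (adjusted p = 0.0581) and Kif3a window 3 was called lower in PM (0.0385). Unknown depth per window limits single values, and windows of 50 CpGs cannot place a change at one regulatory element.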

Other observations

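Genes of resident lung cells had windows called in both directions. Of 76 windows in 6 endothelial genes (Cdh5, Pecam1, Tek, Kdr, Tie1 and Cldn5), 36 (47.4%) were higher and 5 (6.58%) lower after OVA in Sham, and 34 (44.7%) higher and 9 (11.8%) lower in PM, where 13.3% and 9.26% of all windows were higher in Sham and PM and 22.3% and 34.8% were lower. Both Cldn5 windows were higher in both arms, and a Pecam1 window (chr11:106750342-106753694) was lower after OVA, going from 58.1% ± 2.70 to 40.0% ± 4.21 in Sham (adjusted p = 1.8e-08) and from 57.6% ± 3.73 to 41.7% ± 2.63 in PM (adjusted p = 4.08e-08). Another Pecam1 window (chr11:106709556-106713712) rose by 12.5 points in Sham (adjusted p = 8.03e-05) and by 11.6 points in PM (adjusted p = 8.01e-05), and a Cdh5 window (chr8:104121514-104125357) rose by 11.1 points (adjusted p = 1.1e-05) and by 9.59 points (adjusted p = 2.65e-05). Of 52 windows in 10 epithelial genes, 17 (32.7%) were higher and 4 (7.69%) lower in Sham, and 10 (19.2%) higher and 6 (11.5%) lower in PM. Hopx, a gene of alveolar type 1 cells, had a DMR that rose from 44.8% ± 1.20 to 58.0% ± 3.92 in Sham (adjusted p = 2.66e-07), and the same window rose from 49.3% ± 2.94 to 54.9% ± 3.07 in PM (adjusted p = 0.00311). The rise in PM was -7.57 points relative to that in Sham, a difference that did not pass the test over all windows (limma interaction, unadjusted p = 0.00133, adjusted p = 0.551). In 3 mesenchymal genes, 7 of 28 windows (25%) were lower and 5 (17.9%) higher in Sham, and 8 (28.6%) lower and 3 (10.7%) higher in PM.

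Windows of B cell genes were called in both directions, and most of them lie in 1 long gene. Of 68 windows in 5 genes with windows, 17 (25%) were lower and 18 (26.5%) higher in Sham, and 22 (32.4%) lower and 15 (22.1%) higher in PM. Over all windows 22.3% were lower and 13.3% higher in Sham, and 34.8% and 9.26% in PM, so the lower shares lay near the background. Pax5 held 52 of the 68 windows, with 9 lower and 15 higher in Sham and 13 lower and 13 higher in PM. Both windows of Cd79a and both of Cd79b were lower in both arms. A Blk window (chr14:63414366-63418668) fell from 79.8% ± 1.67 to 66.6% ± 3.55 in Sham (adjusted p = 4.85e-09) and from 79.9% ± 0.984 to 66.5% ± 2.46 in PM (adjusted p = 1.24e-09). A Cd79b window (chr11:106312479-106316921) changed by -11.4 points in Sham (adjusted p = 2.01e-08) and by -13.9 points in PM (adjusted p = 5.73e-10). A short Pax5 window (chr4:44664105-44664471) rose from 1.68% ± 0.908 to 14.4% ± 3.78 in Sham (adjusted p = 5.24e-09) and from 2.25% ± 1.09 to 15.7% ± 5.24 in PM (adjusted p = 4.89e-09).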
